A study of Homo sapiens with 9 samples.

Results

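HepG2 cells, a line from a human liver tumour that keeps many hepatocyte functions, were studied after small interfering RNAs against HNF4alpha and HNF4gamma had been given together. The comparison described is that of the 3 arrays titled knockdown2 with the 3 control arrays of the same experiment, chosen by their titles, 6 of the 9 arrays of the series. The other 3 arrays, titled knockdown1, were left out of the comparison and appear in a separate, direct contrast at the end. The labels do not say how knockdown2 and knockdown1 differ (another siRNA, dose or time), what the control received, or whether the replicates were separate cultures, so each p-value rests on the scatter of 3 arrays a group and that scatter may be technical only. All groups were of the 1 cell line.

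HNF4alpha and HNF4gamma are nuclear receptors that bind DNA as dimers at direct repeats in promoters and enhancers. HNF4alpha is best known in liver, where it maintains the genes of lipoprotein secretion, drug and bile acid metabolism, clotting factors and glucose output, together with HNF1alpha, the FOXA factors and C/EBP factors. HNF4gamma is better known from the intestine and has a closely similar DNA-binding domain.

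Each array gave a linear MAS5 signal per probe set, a relative brightness without counts, so the 3 arrays a group set the precision. Signals were scaled to a common array median of 13.7, the factors lay between 0.878 and 1.11, and the log2 fold change is always knockdown2 minus control, taken after adding 1.37 to each signal, which understates the change of dim genes. Of 19775 genes with a probe set of their own, 12380 passed the filter on dim values (above the array median in at least 3 of the 6 arrays) and were tested. Log2 signals correlated at 0.976 to 0.981 across genes within a group and at 0.941 to 0.946 between the groups, which describes the arrays only. Means are given with ± SD over 3 arrays, in parentheses after a gene stand its log2 fold change and standard error, and a gene is said to have risen or fallen where limma's adjusted p was under 0.05. In bulk RNA, fewer cells expressing a gene and less of its RNA per cell cannot be told apart.

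The targeted genes were examined first. HNF4G, which encodes HNF4gamma, has a probe set that gave 12.9, 1.01 and 2.76 in the knockdown2 arrays and 36.4, 27.6 and 20.7 in the control arrays. Every knockdown2 array was below every control array by this dimmer probe set, and the log2 fold change of HNF4G was -2.48 (SE 0.63, adjusted p = 0.0076), a fall past the threshold. It passed the filter only through the control arrays, so a fall was built into its passing, and with a pseudocount equal to the common median the fall was -1.16. The second and brighter HNF4G probe set gave 40.7, 23.7 and 27.8 in knockdown2 and 43.9, 46.5 and 43.7 in control. These arrays did not overlap either, but the difference of -0.56 (SE 0.23, adjusted p = 0.0872) missed the threshold, and without knockdown2 replicate 1, the array nearest to control, it was -0.77 (adjusted p = 0.0368). In the fit without the filter, which does not depend on that passing, the dimmer probe set had an adjusted p of 0.0228 and the brighter one of 0.222. HNF4A itself was not analysed here, so the check of the labels rests on these 2 probe sets of 1 target, of which 1 was called.

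Across the 12380 tested genes, 3576 were called, 28.9% of those tested. Of these, 1744 genes (14.1%) were higher and 1832 (14.8%) lower in knockdown2. Changes of at least 2-fold were called for 1047 genes (8.46%), with 444 higher and 603 lower, and changes of at least 4-fold for 55 higher and 116 lower. The 3 arrays of each group did not overlap for 5096 genes (41.2%). The median log2 fold change of all tested genes was 0.01. The balance of the directions changed when single control arrays were left out. Without control replicate 3, 2912 genes were higher and 1663 lower, and without control replicate 2, 1467 were higher and 2305 lower. The deposited arrays already shared a 2% trimmed mean of 100.01 to 100.02. Scaling to the median then multiplied control replicate 2 by 0.878 and control replicate 3 by 1.11. Leave-one-out counts here and below were made under that scaling, and its part in these shifts was not tested. The number of genes changed at least 2-fold was 938 to 1067 with any 1 array left out. The plot of level and fold change shows where the named genes lie.

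**Figure D1:**
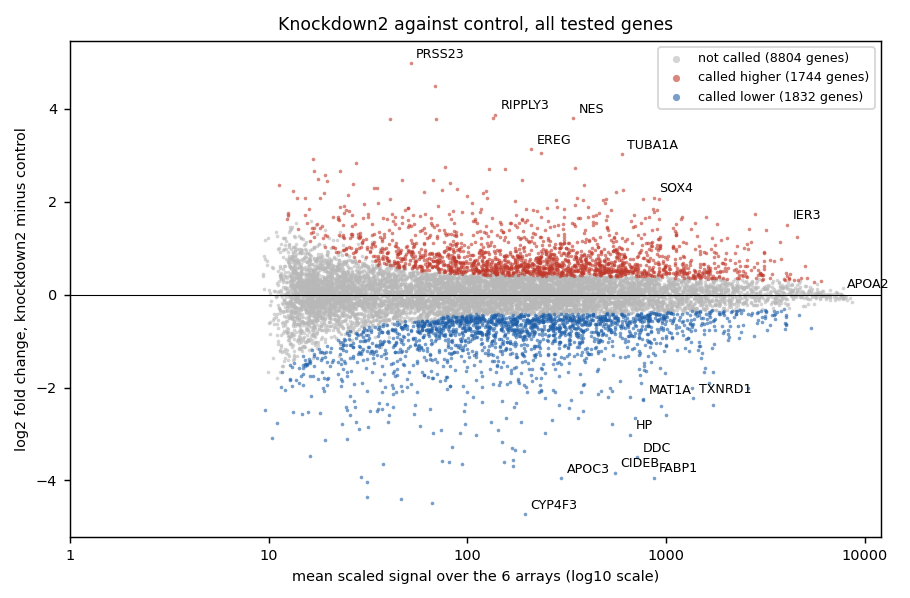
Each point is 1 of the 12380 tested genes, with the mean scaled signal over the 6 arrays on a log axis and the log2 fold change of knockdown2 minus control on the vertical axis. Red points are the 1744 genes called higher, blue points the 1832 called lower and grey points those not called, and FABP1, APOC3, CIDEB and DDC stand far below 0 at middle to high signals while APOA2, among the brightest genes, lies at 0.01.

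Among genes measured above the common median in both groups, the 12 with the largest falls were APOC3, FABP1, CIDEB, SLC6A4, SLCO2B1, SULT2A1, DDC, LGALS2, SOAT2, CIDEC, IL1RN and PDZK1. APOC3, an apolipoprotein that restrains the clearance of triglyceride-rich particles, gave 35.4, 42.9 and 25.8 in the knockdown2 arrays and 697, 424 and 551 in the control arrays. It had the largest fall of these (log2 fold change -3.95, SE 0.19, adjusted p = 1.95e-13). FABP1, the cytosolic fatty acid binding protein of liver, gave 65.8, 134 and 122 in the knockdown2 arrays and 1434, 1409 and 2023 in the control arrays, and fell by 3.94 (SE 0.21, adjusted p = 4.84e-13). For both genes the highest knockdown2 array was far below the lowest control array. CIDEB, a protein of lipid droplets and of the loading of very low density lipoprotein, gave 58.9, 72.2 and 83.7 in the knockdown2 arrays and 1100.0, 965 and 1025 in the control arrays (log2 fold change -3.83, SE 0.16, adjusted p = 2.13e-14). SLCO2B1, an uptake carrier for organic anions, gave 12.2, 23.7 and 35.99 in the knockdown2 arrays and 252, 283 and 312 in the control arrays (log2 fold change -3.60, SE 0.24, adjusted p = 4.82e-11). DDC, the decarboxylase that makes dopamine and serotonin from their amino acid precursors, gave 109.9, 113 and 118 in the knockdown2 arrays and 1491, 1078 and 1372 in the control arrays (log2 fold change -3.50, SE 0.16, adjusted p = 6.13e-14). PDZK1, a scaffold for apical transporters and for the HDL receptor SR-BI, gave 17.5, 36.8 and 29.0 in the knockdown2 arrays and 192, 199.5 and 416 in the control arrays (log2 fold change -3.18, SE 0.25, adjusted p = 7.73e-10). In each of these 4 genes the groups lay apart without overlap, with the 3 DDC arrays of knockdown2 the closest together.

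CIDEB, SLCO2B1, DDC and PDZK1 are the 4 of the 12 whose promoter window held one of the motifs searched, and the windows are shown to place that match. The motifs were CAAAGTCCA, a sequence that HNF4 dimers are known to favour, and CAAAGGTCA, a direct repeat form that other receptors such as RXR dimers also bind. Both were searched on both strands of windows from 250 bases before to 50 bases after each gene start in RefSeq (GRCh38.p14), and no stretch can match both. Of the 12 genes, 10 had a window in that table. Each window reads 5′ to 3′ along the gene, with the match in capitals.

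CIDEB: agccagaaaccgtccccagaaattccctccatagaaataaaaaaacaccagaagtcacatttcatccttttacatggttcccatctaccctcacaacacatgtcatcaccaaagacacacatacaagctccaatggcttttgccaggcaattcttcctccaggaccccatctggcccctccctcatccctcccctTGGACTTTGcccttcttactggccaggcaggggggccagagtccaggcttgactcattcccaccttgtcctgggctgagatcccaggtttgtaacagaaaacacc

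SLCO2B1: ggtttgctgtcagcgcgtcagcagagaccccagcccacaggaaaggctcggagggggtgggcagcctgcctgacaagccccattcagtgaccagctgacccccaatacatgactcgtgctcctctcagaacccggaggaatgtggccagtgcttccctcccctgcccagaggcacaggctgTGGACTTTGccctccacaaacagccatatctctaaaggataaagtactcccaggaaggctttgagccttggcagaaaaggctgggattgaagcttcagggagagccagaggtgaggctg

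DDC: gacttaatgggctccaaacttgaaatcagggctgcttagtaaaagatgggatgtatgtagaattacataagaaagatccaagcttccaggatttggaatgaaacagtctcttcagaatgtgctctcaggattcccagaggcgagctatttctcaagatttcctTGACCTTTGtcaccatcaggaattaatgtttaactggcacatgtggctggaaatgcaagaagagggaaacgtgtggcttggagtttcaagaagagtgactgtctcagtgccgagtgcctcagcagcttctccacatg

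PDZK1: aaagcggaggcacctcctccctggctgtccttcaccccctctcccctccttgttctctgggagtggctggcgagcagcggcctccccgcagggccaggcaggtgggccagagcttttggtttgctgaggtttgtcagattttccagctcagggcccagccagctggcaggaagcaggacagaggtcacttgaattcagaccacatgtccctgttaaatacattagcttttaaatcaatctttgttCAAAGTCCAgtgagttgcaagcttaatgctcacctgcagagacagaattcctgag

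The CIDEB window lies at chr14:24307928-24308227 on the minus strand, and its CAAAGTCCA match, read on the opposite strand of the window, starts at position -55 from the gene start. The SLCO2B1 window lies at chr11:75159582-75159881 on the plus strand with a match to the same motif on the opposite strand at -69. The DDC window lies at chr7:50565356-50565655 on the minus strand and holds CAAAGGTCA on the opposite strand at -87. The PDZK1 window lies at chr1:145707351-145707650 on the minus strand with CAAAGTCCA in the direction of the gene at -5, so that the match spans the gene start. Each of these genes had 2 windows, of which the one with the match is shown. A match describes the letters and is not evidence of binding, and no match says only that these letters are not in the window.

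Either motif occurred in 0.792% of the 35116 windows of 27305 genes. Counted by gene, with any of its windows, 93 of 10038 tested genes with a window held a match (0.926%). Among genes called lower it was 24 of 1505 (1.59%) and among genes called higher 7 of 1425 (0.491%). Among those at least 2-fold lower it was 15 of 471 (3.18%), of which 13 held CAAAGTCCA, and among those at least 2-fold higher 1 of 339 (0.295%). These shares are a description of letters in short windows, without a test. Besides the 4 genes above, the 15 were PUS10, a pseudouridine synthase, CCR6, the receptor of the chemokine CCL20, which passed the filter through the control arrays alone, ERICH4, LEAP2, a liver-made antagonist of the ghrelin receptor, MYO1A, a brush border myosin, PIPOX and AGMAT, which break down pipecolic acid and agmatine, SMLR1, HAAO of the kynurenine pathway, PROZ, a cofactor of clotting control, and LBX2-AS1. PUS10 had the largest fall of these (-2.65, SE 0.17), with 272 ± 35.9 in control and 42.0 ± 4.65 in knockdown2. SMLR1, the brightest of them in control, gave 1509.9 ± 217 in control and 465 ± 51.6 in knockdown2 (-1.69, SE 0.15).

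The other 8 of the 12 largest falls had no such match or no window. SLC6A4, the serotonin transporter, gave 316 ± 35.6 in control and 23.3 ± 1.38 in knockdown2 (-3.68, SE 0.17). SULT2A1, which adds sulfate to steroids and bile acids, gave 313 ± 35.5 in control and 26.2 ± 8.62 in knockdown2 (-3.56, SE 0.20). SOAT2, which esterifies cholesterol for lipoproteins, gave 317 ± 33.7 in control and 30.1 ± 4.37 in knockdown2 (-3.34, SE 0.17), and CIDEC, a lipid droplet protein related to CIDEB, gave 304 ± 45.3 in control and 29.6 ± 3.83 in knockdown2 (-3.30, SE 0.17). So the 2 CIDE genes, SOAT2, FABP1 and APOC3, which act on neutral lipid and its carriers, were among the 12. LGALS2 (-3.37, SE 0.17) encodes a galectin and IL1RN (-3.28, SE 0.24) the antagonist of the interleukin 1 receptor. Every one of the 12 was lower in 3 of 3 knockdown2 arrays than in any control array, which the choice of genes required.

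**Figure D2:**
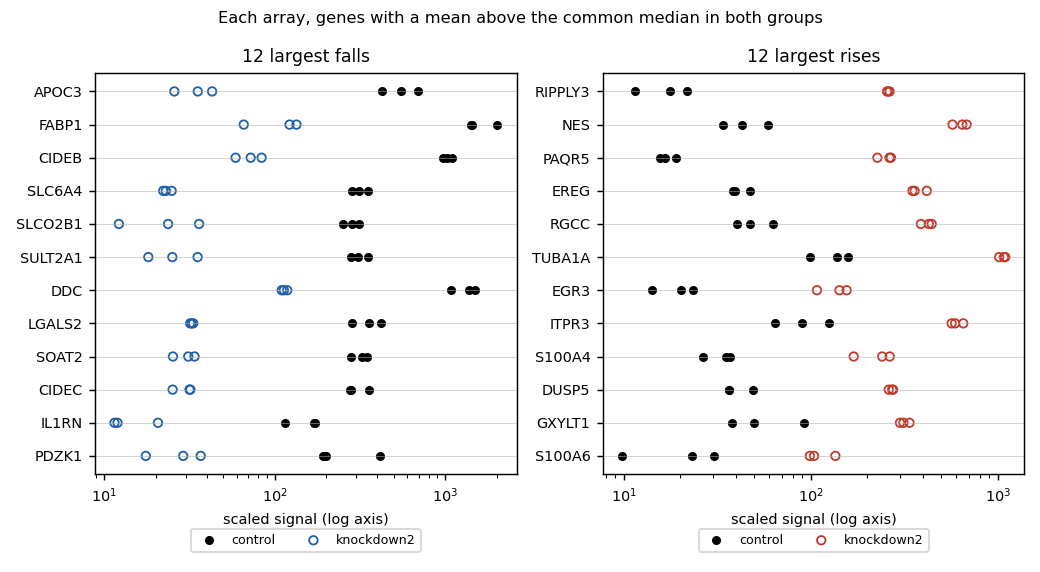
Scaled signal of every array on a log axis, control as filled and knockdown2 as open circles, for the 12 largest falls (left) and the 12 largest rises (right) among genes measured above the common median in both groups. No gene has overlapping groups, which was a condition of the choice, and the falls start from brighter control signals than the rises, with FABP1, DDC and CIDEB near or above 1000 in control.

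The 12 largest rises chosen in the same way were RIPPLY3, NES, PAQR5, EREG, RGCC, TUBA1A, EGR3, ITPR3, S100A4, DUSP5, GXYLT1 and S100A6. NES, the intermediate filament nestin, gave 683, 573 and 647 in the knockdown2 arrays and 34.2, 43.0 and 59.5 in the control arrays (log2 fold change 3.79, SE 0.18, adjusted p = 1.04e-13). RIPPLY3, a corepressor of T-box factors, gave 264, 256 and 259 in the knockdown2 arrays and 17.7, 11.5 and 21.9 in the control arrays (log2 fold change 3.87, SE 0.20, adjusted p = 4.84e-13). EREG, the EGF receptor ligand epiregulin, gave 350.2, 418 and 359.9 in the knockdown2 arrays and 39.6, 47.2 and 38.3 in the control arrays (log2 fold change 3.13, SE 0.16, adjusted p = 4.43e-13). In these 3 genes the lowest knockdown2 array stood several times above the highest control array. TUBA1A, an alpha tubulin, gave 1018, 1098 and 1080.5 in the knockdown2 arrays and 138, 99.3 and 159 in the control arrays (log2 fold change 3.02, SE 0.17, adjusted p = 1.51e-12). PAQR5, a membrane progesterone receptor, rose with 17.0 ± 1.72 in control and 253 ± 22.6 in knockdown2 (3.79, SE 0.18), and RGCC, a regulator of the cell cycle, with 50.2 ± 11.3 in control and 420.4 ± 28.5 in knockdown2 (3.05, SE 0.17). ITPR3, the type 3 inositol trisphosphate receptor that releases calcium from the endoplasmic reticulum, gave 93.5 ± 31.0 in control and 605 ± 45.0 in knockdown2 (2.73, SE 0.19). The calcium-binding S100A4 (2.71, SE 0.19) and S100A6 (2.46, SE 0.28) rose as well, as did GXYLT1 (2.47, SE 0.22), which adds xylose to O-glucose on Notch. EGR3 and DUSP5 complete the 12 and are described with the immediate early genes.

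Larger fold changes were found in genes that were dim in 1 of the groups, where the pseudocount sets part of the size. CYP4F3, a fatty acid and leukotriene hydroxylase, gave 9.67, 14.5 and 14.7 in the knockdown2 arrays and 402, 305 and 419 in the control arrays (-4.72, SE 0.19), and CYP19A1, the aromatase that makes oestrogens, gave 11.6, 2.62 and 2.15 in the knockdown2 arrays and 149, 128 and 105 in the control arrays (-4.49, SE 0.38). Both were bright in every control array. UNC93A (-4.40, SE 0.37), UPK3A (-4.35, SE 0.49) and DKK4 (-4.03, SE 0.49), a secreted Wnt antagonist, fell from dimmer levels. In the other direction PRSS23, a serine protease, gave 95.0, 92.6 and 117 in the knockdown2 arrays and 3.87, 1.05 and 1.34 in the control arrays (4.98, SE 0.41), and TFPI2, an inhibitor of extracellular proteases, gave 68.5, 178 and 149 in the knockdown2 arrays and 0.993, 3.42 and 13.5 in the control arrays (4.48, SE 0.46). All 3 knockdown2 arrays of CYP19A1, UNC93A, UPK3A and DKK4 and all 3 control arrays of PRSS23 and TFPI2 lay below the common median, so passing the filter already required the groups to lie apart, and the size of each change is uncertain. In the fit without the filter these 6 genes were called in the same direction, with adjusted p from 5.81e-06 for UNC93A to 2.24e-04 for TFPI2.

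The remaining genes are described by 32 lists, which hold 1041 annotated genes, 885 of them tested. A list is given by how many of its tested members rose and fell, to be read against the 14.1% higher and 14.8% lower among all tested genes, and by its median beside that of all genes (0.01).

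**Figure D3:**
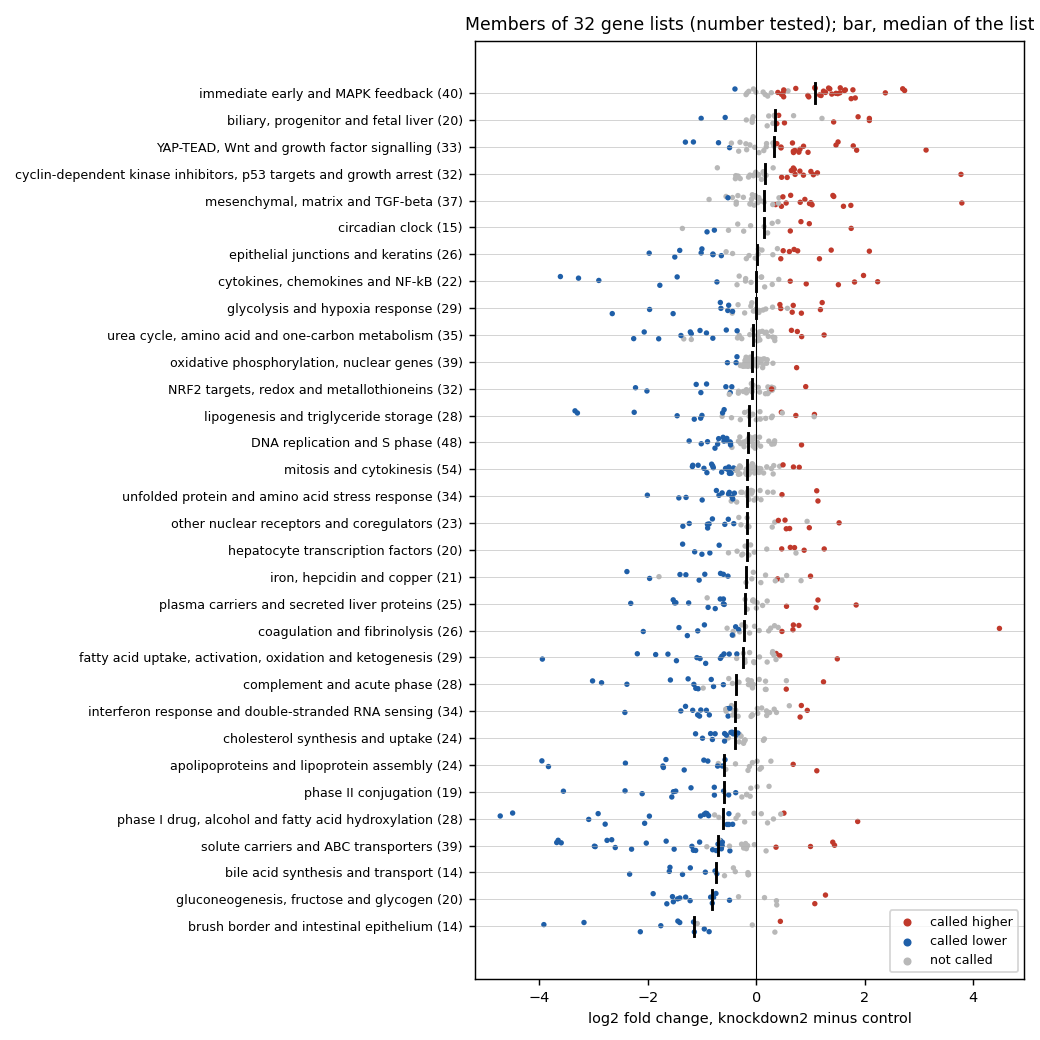
Log2 fold change of knockdown2 minus control for every tested member of the 32 gene lists, ordered by the median (black bar), with the number tested in parentheses, red for called higher, blue for called lower and grey for not called. The lists run from brush border genes (median -1.15) at the bottom to immediate early and MAPK feedback genes (median 1.08) at the top.

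Of 20 hepatocyte transcription factors tested, 5 rose, 5 fell and 10 did not pass (median -0.17). CEBPA, a leucine zipper factor of hepatocyte differentiation, gave 342, 268 and 416 in the knockdown2 arrays and 723, 468 and 671 in the control arrays (log2 fold change -0.86, SE 0.18, adjusted p = 7.26e-04). NR5A2, the receptor LRH-1 that acts on bile acid genes, gave 200.2 ± 29.0 in control and 89.9 ± 6.60 in knockdown2 (-1.14, SE 0.16), and GATA4, an endoderm factor, gave 177 ± 19.3 in control and 88.1 ± 12.03 in knockdown2 (-1.002, SE 0.17). CREB3L3 (-1.36, SE 0.43), a membrane-bound factor of lipid genes, fell from dim signals. It passed the filter through the control arrays alone (adjusted p = 0.0446 without the filter), and its adjusted p was 0.0571 when all 9 arrays shared the fit. PROX1, a homeobox factor of early liver, gave 184, 183 and 173 in the knockdown2 arrays and 72.9, 79.9 and 71.6 in the control arrays (log2 fold change 1.25, SE 0.16, adjusted p = 1.08e-06). Further PROX1 probe sets changed less, called higher at 0.62 and 0.52 and not passing at 0.37. TBX3 (0.88, SE 0.15), FOXA3 (0.71, SE 0.15) and HLF (0.63, SE 0.14) also rose. FOXA2 (0.47, SE 0.17) was called higher and KLF15 (-0.68, SE 0.22) lower, but FOXA2 lost its call without knockdown2 replicate 1 or 2 or control replicate 1 or 2, without the filter on low values, without probe sets shared between transcripts or without a variance trend (adjusted p 0.0504 to 0.254) and KLF15 without knockdown2 replicate 1 or 3 or control replicate 1, without the filter on low values or without a variance trend (adjusted p 0.0639 to 0.107). FOXA1 (-0.25, SE 0.17), CEBPB (0.19, SE 0.13), CEBPD (-0.35, SE 0.17) and XBP1 (-0.14, SE 0.13) did not pass. Of the FOXA pioneer factors none was called lower.

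Of 23 other nuclear receptors and coregulators tested, 6 rose and 9 fell (median -0.17), and 2 of them rose without knockdown2 replicate 1 or control replicate 1 and 3 without the second replicate of either group. NR2F6, an orphan receptor of the COUP-TF family, gave 158, 155 and 185 in the knockdown2 arrays and 416, 365 and 504 in the control arrays (log2 fold change -1.35, SE 0.16, adjusted p = 5.59e-07), and NR2F1 of the same family also fell (-0.90, SE 0.17). PPARA, the fatty acid receptor that drives oxidation in liver, gave 61.9 ± 10.7 in control and 32.8 ± 7.53 in knockdown2 (-0.90, SE 0.22) and fell, with an adjusted p of 0.279 on the mean of its probe sets, and its partner RXRA (-0.81, SE 0.18) and the coactivator PPARGC1A (-0.87, SE 0.17) fell. VDR, the vitamin D receptor, fell too (-1.24, SE 0.28). PPARG, the receptor that directs lipid storage, gave 69.5, 52.3 and 73.3 in the knockdown2 arrays and 19.95, 20.3 and 24.3 in the control arrays (log2 fold change 1.53, SE 0.23, adjusted p = 1.81e-05). The 3 knockdown2 arrays of PPARG lay above all controls, so that PPARA and PPARG moved in opposite directions. NR1D2 (0.98, SE 0.19), the receptor REV-ERBbeta, rose. NR3C1, the glucocorticoid receptor, was called higher (0.53, SE 0.15) but lost its call without knockdown2 replicate 1 or 2 or control replicate 1, without probe sets shared between transcripts or without a variance trend (adjusted p 0.0519 to 0.246), and NR1H3, the oxysterol receptor LXRalpha, was called lower (-0.41, SE 0.16) but lost its call without knockdown2 replicate 1, 2 or 3 or control replicate 1, with a pseudocount equal to the median, without the filter on low values, under the stricter filter, without probe sets shared between transcripts or without a variance trend (adjusted p 0.0507 to 0.158). NR0B2 (-0.32, SE 0.17), the small heterodimer partner, did not pass.

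Of 24 apolipoprotein and lipoprotein assembly genes tested, 12 fell and 2 rose (median -0.60). Beside APOC3 and CIDEB, the largest fall among genes bright in control was that of MTTP, which loads lipid onto apolipoprotein B. MTTP gave 47.4, 55.8 and 56.5 in the knockdown2 arrays and 280.4, 265 and 324 in the control arrays (log2 fold change -2.41, SE 0.16, adjusted p = 4.08e-11), groups far apart. APOA5 (-1.67, SE 0.22), an activator of lipoprotein lipase, LCAT (-1.33, SE 0.18), which esterifies cholesterol on HDL, APOM (-0.89, SE 0.14), APOH (-0.71, SE 0.11) and SAR1B (-0.58, SE 0.14), a GTPase of the coat that exports large lipoproteins, fell. APOA1, the main HDL protein, gave 4859 ± 416 in control and 3144 ± 162 in knockdown2 (-0.63, SE 0.11), and without probe sets shared between transcripts its difference did not pass (adjusted p = 0.828). APOB (-0.13, SE 0.10), APOA2 (0.01, SE 0.10) and APOE (0.07, SE 0.12) did not pass. APOC1, encoded beside APOE, gave 2297, 2114 and 2017 in the knockdown2 arrays and 1576, 1086 and 1387 in the control arrays (log2 fold change 0.68, SE 0.14, adjusted p = 5.50e-04), and CETP, the cholesteryl ester transfer protein, rose from low signals (1.12, SE 0.28). So within the APOC family APOC3 and APOC1 moved in opposite directions, while APOC2 (-0.38, SE 0.26) did not pass.

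Of 29 tested genes of fatty acid uptake, activation, oxidation and ketogenesis, 13 fell and 3 rose (median -0.24). Without control replicate 3, 8 rose, and without any other 1 of the arrays, 1 did. Beside FABP1, the falls lay in peroxisomal and import steps as well as in single mitochondrial enzymes. ACAA1, the peroxisomal thiolase, gave 184, 176 and 179.9 in the knockdown2 arrays and 819.7, 665 and 1042 in the control arrays (log2 fold change -2.19, SE 0.16, adjusted p = 2.97e-10), and HSD17B4, the peroxisomal bifunctional enzyme, gave 1252 ± 280.2 in control and 600.0 ± 37.6 in knockdown2 (-1.04, SE 0.16). SLC27A2, which imports and activates very long chain fatty acids, gave 334 ± 88.3 in control and 89.4 ± 4.75 in knockdown2 (-1.86, SE 0.17). SLC25A20, the carnitine carrier, fell (-0.93, SE 0.16) and CPT2 did not pass (0.30, SE 0.19). CPT1A, the first step of the carnitine shuttle, was called lower (-0.66, SE 0.22) but lost its call without knockdown2 replicate 1 or control replicate 1, without the filter on low values or without a variance trend (adjusted p 0.0517 to 0.167). ETFDH (-1.47, SE 0.22), which passes electrons to ubiquinone, and BDH1 (-1.63, SE 0.20), a ketone body dehydrogenase, fell too. The trifunctional protein genes HADHA (0.06, SE 0.13) and HADHB (0.20, SE 0.12) and ACADVL (-0.04, SE 0.16) did not pass. ACSL1, a main long chain acyl-CoA synthetase, gave 670.0, 600.5 and 613 in the knockdown2 arrays and 218, 177 and 283 in the control arrays (log2 fold change 1.49, SE 0.17, adjusted p = 2.08e-07), all knockdown2 arrays above the controls.

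Of 28 genes of lipogenesis and triglyceride storage tested, 9 fell and 3 rose (median -0.13). ELOVL2, which elongates polyunsaturated fatty acids, gave 242, 275 and 271 in the knockdown2 arrays and 1474, 1046 and 1274 in the control arrays (log2 fold change -2.25, SE 0.15, adjusted p = 6.21e-11). DGAT1 (-1.46, SE 0.16) and DGAT2 (-0.59, SE 0.15), which complete triglyceride, GPAM (-1.002, SE 0.15), which starts it, and the phosphatidate phosphatase LPIN1 (-1.14, SE 0.17) fell. The desaturase SCD also fell (-0.62, SE 0.12), and CIDEC, given above, is a further member that fell. FASN (0.08, SE 0.15), ACACA (-0.13, SE 0.16) and ACLY (-0.06, SE 0.12), the core of fatty acid synthesis, did not pass. The droplet coat gene PLIN3 rose with 487 ± 78.2 in control and 1019.8 ± 63.4 in knockdown2 (1.07, SE 0.15), opposite to the droplet genes CIDEB and CIDEC, and PLIN2 rose (0.73, SE 0.13) on its brightest probe set, with an adjusted p of 0.0822 on the mean of its probe sets.

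Of 24 genes of cholesterol synthesis and uptake tested, 13 fell and 0 rose (median -0.40). The falls were modest, and the number called lower was 6 without control replicate 1 and 7 or 8 without any 1 of the knockdown2 arrays. LSS, lanosterol synthase, gave 403, 360.0 and 429.5 in the knockdown2 arrays and 961, 668 and 1001 in the control arrays (log2 fold change -1.12, SE 0.16, adjusted p = 8.61e-06), the largest of them. HMGCS1, the step before HMG-CoA reductase, gave 850.5 ± 35.8 in control and 428 ± 43.0 in knockdown2 (-0.99, SE 0.14). NSDHL (-0.84, SE 0.15) fell, as did EBP (-0.81, SE 0.14), although EBP has further probe sets of the opposite sign and did not pass on their mean (adjusted p = 0.206). The regulator SREBF2 was called lower (-0.55, SE 0.16) but lost its call without knockdown2 replicate 2 or 3 or control replicate 1 or on the mean of its probe sets (adjusted p 0.0564 to 0.0867). FDPS (0.15, SE 0.14) and DHCR7 (-0.23, SE 0.14) did not pass.

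Of 24 annotated genes of bile acid synthesis and transport 14 were tested, and 8 of these fell and 0 rose (median -0.74). All 14 had a negative sign. CYP27A1, the mitochondrial sterol hydroxylase of the alternative pathway, gave 342, 382 and 363 in the knockdown2 arrays and 1154, 1027 and 1133 in the control arrays (log2 fold change -1.60, SE 0.14, adjusted p = 4.68e-09). ACOX2, which shortens the side chain in peroxisomes, gave 357 ± 35.1 in control and 117 ± 7.84 in knockdown2 (-1.59, SE 0.16). CYP8B1 (-1.36, SE 0.29), which sets the share of cholic acid, and AKR1D1 (-2.34, SE 0.32), which reduces the sterol ring, fell from dimmer levels. Both parts of the receptor for the gut hormone FGF19 fell, FGFR4 with 619 ± 129 in control and 369 ± 24.5 in knockdown2 (-0.73, SE 0.16) and its coreceptor KLB with 1377 ± 293 in control and 583 ± 26.3 in knockdown2 (-1.22, SE 0.15). The exporter gene ABCC2 did not pass (-0.15, SE 0.12). CYP7A1, ABCB11 and SLCO1B1 did not pass the filter on dim values.

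Of 38 annotated genes of phase I oxidation 28 were tested, 16 fell and 2 rose (median -0.61). Without control replicate 1 the number called lower was 10, of 24 that were then tested. Without knockdown2 replicate 1 or 3, 1 rose. Of the 28 tested in the main setting, 3 passed the filter through 1 group alone. The cytochrome P450 4F genes, whose enzymes hydroxylate fatty acids and vitamin K or E side chains, were among the largest falls, beside CYP19A1. CYP4F12 gave 23.4, 46.3 and 29.5 in the knockdown2 arrays and 208, 273 and 271 in the control arrays (log2 fold change -2.92, SE 0.20, adjusted p = 8.50e-11), and CYP4F3, CYP4F11 (-3.09, SE 0.86) and CYP4F2 (-2.79, SE 0.48) fell as well. CYP19A1, CYP4F11 and CYP4F2 are the 3 that passed through the control arrays alone, so their fall was built into their passing, and without the filter the adjusted p was 4.13e-04 for CYP4F11 and 0.00173 for CYP4F2. These genes are close paralogs whose probes may share transcripts, so the 4 values are not independent. EPHX2, the soluble epoxide hydrolase, gave 131 ± 17.1 in control and 32.8 ± 8.07 in knockdown2 (-1.97, SE 0.20), and ADH6, an alcohol dehydrogenase, gave 378 ± 77.4 in control and 88.6 ± 7.13 in knockdown2 (-2.06, SE 0.17). ALDH2 (-0.93, SE 0.13), the mitochondrial aldehyde dehydrogenase, and POR (-0.88, SE 0.16), the reductase that feeds electrons to microsomal P450s, fell. CYP3A5 gave 78.4, 78.4 and 80.2 in the knockdown2 arrays and 25.3, 23.9 and 14.4 in the control arrays (log2 fold change 1.87, SE 0.24, adjusted p = 1.18e-06), a rise in every array, and CYP24A1, which inactivates vitamin D, rose (0.51, SE 0.15) but lost its call without knockdown2 replicate 1 or 3 or without a variance trend (adjusted p 0.0529 to 0.0866). CYP3A4 (-0.34, SE 0.32) and CYP1A1 (-0.04, SE 0.17) did not pass.

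Of 28 annotated phase II conjugation genes 19 were tested, 12 fell and 0 rose (median -0.60). SULT1C2, a sulfotransferase, fell beside SULT2A1 and gave 13.6, 12.1 and 10.8 in the knockdown2 arrays and 91.8, 57.3 and 67.5 in the control arrays (-2.42, SE 0.27). It passed the filter through the control arrays alone (adjusted p = 1.44e-04 without the filter). SULT1A1 (-0.11, SE 0.12) did not pass. The glutathione transferases GSTM4 (-2.10, SE 0.18), GSTM1 (-1.56, SE 0.17), GSTM2 (-1.20, SE 0.17) and GSTA1 (-1.53, SE 0.27) fell, and the 3 GSTM genes, of the mu class, are closely similar, so their probe sets may read each other. The bright MGST1 fell less (-0.51, SE 0.11). UGT2A3 (-1.49, SE 0.25), a glucuronosyltransferase, fell, and the genes UGT2B4, UGT2B15 and UGT2B17 did not pass the filter.

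Of 26 coagulation and fibrinolysis genes tested, 8 fell and 5 rose (median -0.23). Among the rises was TFPI2, which passed the filter through the knockdown2 arrays alone. Without control replicate 1, 5 were called lower. The number called higher was 8 without control replicate 3 and 2 or 3 without control replicate 1 or any 1 of the knockdown2 arrays. SERPINC1, antithrombin, gave 192, 210.4 and 204 in the knockdown2 arrays and 946, 722 and 932 in the control arrays (log2 fold change -2.08, SE 0.15, adjusted p = 2.41e-10). The vitamin K dependent factors F7 (-1.43, SE 0.23) and F10 (-0.96, SE 0.18) fell, and so did PROZ (-1.27, SE 0.28) and SERPINA10 (-1.08, SE 0.18), which together restrain factor Xa. F2 (-0.27, SE 0.16), F5 (0.05, SE 0.18), PROC (-0.43, SE 0.18) and the fibrinogen genes FGA (0.34, SE 0.13), FGB (0.23, SE 0.12) and FGG (-0.03, SE 0.10) did not pass. F3, tissue factor, was called higher with 73.0 ± 16.5 in control and 118 ± 24.8 in knockdown2 (0.68, SE 0.19) but lost its call without control replicate 1, without the filter on low values or without a variance trend (adjusted p 0.0525 to 0.0675). TFPI is not given a direction, since its brightest probe set was called higher (0.79, SE 0.14), another gave -0.30 without passing, and without any 1 of the knockdown2 arrays that other probe set was the brightest (-0.35 to -0.25). The remaining TFPI probe sets were positive, called higher at 0.69 (adjusted p = 0.00485) and not passing at 0.42 and 0.33.

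Of 28 complement and acute phase genes tested, 11 fell and 2 rose (median -0.38), and 2 passed the filter through 1 group alone. Without knockdown2 replicate 1 or 3, 1 rose. HP, haptoglobin, gave 95.3, 173 and 149 in the knockdown2 arrays and 1288, 663 and 1574 in the control arrays (log2 fold change -3.02, SE 0.24, adjusted p = 5.86e-10), control arrays several times above knockdown2. HAMP, the iron hormone hepcidin, gave 96.3, 77.7 and 86.7 in the knockdown2 arrays and 748, 343 and 374 in the control arrays (log2 fold change -2.39, SE 0.21, adjusted p = 4.68e-09). ORM1, an acute phase glycoprotein, gave 2147 ± 231 in control and 895 ± 42.4 in knockdown2 (-1.26, SE 0.13). Of the chains of complement C8, C8A (-1.58, SE 0.37) and C8G (-1.15, SE 0.21) fell. The third, C8B (-2.85, SE 0.39), was called lower too but passed the filter through the control arrays alone (adjusted p = 5.08e-04 without the filter). CFB (-1.12, SE 0.16) and C2 (-0.83, SE 0.16), which make the convertases, and the inhibitors CFI (-0.79, SE 0.13) and C4BPB (-1.07, SE 0.16) fell. C3 (0.17, SE 0.12), C5 (0.17, SE 0.16), SERPINA1 (-0.09, SE 0.11) and SERPINA3 (-0.14, SE 0.13) did not pass. CLU, the chaperone clusterin, gave 1240.2, 1259.5 and 1409 in the knockdown2 arrays and 531, 492 and 636 in the control arrays (log2 fold change 1.24, SE 0.14, adjusted p = 3.50e-07), a rise in every array.

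Of 25 genes of plasma carriers and other secreted liver proteins tested, 11 fell and 4 rose (median -0.20). The carboxypeptidase N subunits CPN1 (-1.53, SE 0.17) and CPN2 (-2.31, SE 0.17) fell, CPN2 with 198 ± 6.97 in control and 39.1 ± 5.83 in knockdown2. ANG, angiogenin, gave 353 ± 39.9 in control and 124 ± 19.3 in knockdown2 (-1.505, SE 0.16), and SERPINA6, the cortisol carrier, gave 1204 ± 62.1 in control and 508 ± 58.4 in knockdown2 (-1.25, SE 0.14). RBP4 (-0.89, SE 0.12) and TTR (-0.76, SE 0.18), which carry retinol together, TF (-0.61, SE 0.12), transferrin, and AGT (-0.66, SE 0.12), angiotensinogen, fell, while ALB (-0.17, SE 0.13), AFP (-0.06, SE 0.10) and AHSG (0.02, SE 0.10) did not pass. IGFBP4, an IGF binding protein, gave 183, 167 and 199 in the knockdown2 arrays and 46.5, 46.9 and 57.1 in the control arrays (log2 fold change 1.84, SE 0.17, adjusted p = 6.26e-09). IGFBP1 (1.10, SE 0.16) rose, and GDF15, a hormone of cell stress, rose with 2352 ± 268 in control and 5158 ± 237 in knockdown2 (1.14, SE 0.12).

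Of 35 genes of the urea cycle, amino acid and one-carbon metabolism tested, 11 fell and 4 rose (median -0.06, and 0.01 without control replicate 3). Of the 35, 1 passed the filter through 1 group alone. MAT1A, the liver form of methionine adenosyltransferase, gave 224, 263 and 297 in the knockdown2 arrays and 1210.5, 1046 and 1541 in the control arrays (log2 fold change -2.26, SE 0.16, adjusted p = 1.47e-10), whereas MAT2A, the form of other tissues, did not pass (0.31, SE 0.16). Of tyrosine breakdown, HPD (-1.20, SE 0.15) and HGD (-1.04, SE 0.14) fell and FAH (-0.12, SE 0.16) and TAT (0.02, SE 0.21) did not pass. In the urea cycle ASS1, which joins citrulline and aspartate, gave 635 ± 135 in control and 269 ± 20.3 in knockdown2 (-1.22, SE 0.16), while CPS1 did not pass (0.04, SE 0.16). NAGS, which makes the activator of CPS1, rose from low signals (1.25, SE 0.30), and ARG2, the mitochondrial arginase, rose (0.84, SE 0.15), with an adjusted p of 0.108 without probe sets shared between transcripts. AGXT (-2.07, SE 0.25), which removes glyoxylate, PRODH2 (-1.80, SE 0.23) and GLUD1 (-0.80, SE 0.12), glutamate dehydrogenase, fell. KYNU, which splits kynurenines, gave 1480.0 ± 234 in control and 2481 ± 69.1 in knockdown2 (0.76, SE 0.13), opposite to HAAO (-1.39, SE 0.21) further along the pathway.

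Of 20 genes of gluconeogenesis, fructose use and glycogen tested, 14 fell and 2 rose (median -0.81). FBP1 was called lower but passed the filter through the control arrays alone. In the fit without the filter FBP1 gave -1.55 (adjusted p = 0.0562). It also lost its call with all 9 arrays in the fit or without knockdown2 replicate 3. Called higher were 4 without control replicate 3 and 1 without control replicate 1 or knockdown2 replicate 2. KHK, fructokinase, gave 61.0, 38.7 and 42.1 in the knockdown2 arrays and 149.7, 120.4 and 181 in the control arrays (log2 fold change -1.65, SE 0.19, adjusted p = 4.62e-07), and TKFC (-1.22, SE 0.16), the later kinase of that pathway, fell too. SLC37A4, the glucose 6-phosphate carrier of the endoplasmic reticulum, gave 329.7 ± 60.2 in control and 131 ± 5.69 in knockdown2 (-1.30, SE 0.16). GCKR (-1.45, SE 0.20), which holds glucokinase in the nucleus, PKLR (-1.90, SE 0.41), the liver pyruvate kinase, GYG2 (-1.53, SE 0.19), which primes glycogen, PYGL (-0.84, SE 0.17), which breaks it down, PC (-0.81, SE 0.16), SLC2A2 (-0.79, SE 0.14), the liver glucose transporter, and FOXO1 (-0.81, SE 0.17) fell. PCK2 (0.15, SE 0.16) did not pass. TRIB1, a pseudokinase that lowers C/EBPalpha protein, gave 3368, 3501 and 3505 in the knockdown2 arrays and 1508, 1479 and 1959.8 in the control arrays (log2 fold change 1.08, SE 0.13, adjusted p = 4.31e-07). The catalytic glucose 6-phosphatase gene G6PC1 rose at signals near the common median (1.28, SE 0.47) and lost its call under 8 of the alternatives, the 3 other scalings among them (adjusted p up to 0.229), and PCK1 and GYS2 did not pass the filter.

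Of 29 glycolysis and hypoxia response genes tested, 7 rose and 8 fell, with a median of -0.01 that became 0.02 when arrays were centred on the tested genes or without knockdown2 replicate 1, and 0.05 without control replicate 3. LOX, which crosslinks collagen, gave 210.3, 176 and 181 in the knockdown2 arrays and 1307, 1013 and 1284 in the control arrays (log2 fold change -2.66, SE 0.15, adjusted p = 3.41e-12), and P4HA1, a collagen prolyl hydroxylase, gave 1146 ± 141 in control and 393 ± 9.84 in knockdown2 (-1.53, SE 0.15). EPO, erythropoietin, fell from dim signals (-1.97, SE 0.55), with an adjusted p of up to 0.0875 without the filter on low values and without a variance trend. SLC2A1, the glucose transporter GLUT1, fell less (-0.65, SE 0.13). On the other side HK1 (1.22, SE 0.16), ENO2 (1.18, SE 0.15), PKM (0.68, SE 0.12) and SLC2A3 (0.66, SE 0.13), isoforms common outside the liver, rose, PKM with 1704 ± 138 in control and 2732 ± 176 in knockdown2. So the liver isoform PKLR fell and PKM rose, while GAPDH (-0.05, SE 0.10), ENO1 (0.05, SE 0.10) and LDHA (-0.08, SE 0.10) did not pass.

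Of 39 solute carriers and ABC transporters tested, 25 fell and 4 rose (median -0.71), and 4 passed the filter through 1 group alone. SLC13A5, the plasma membrane citrate carrier, gave 46.2, 63.6 and 53.2 in the knockdown2 arrays and 489.5, 381 and 445 in the control arrays (log2 fold change -2.99, SE 0.17, adjusted p = 1.56e-12). SLC47A1, which exports organic cations into bile, gave 88.3, 91.1 and 108 in the knockdown2 arrays and 620.5, 494 and 749 in the control arrays (log2 fold change -2.67, SE 0.17, adjusted p = 1.50e-11). SLC2A9, a urate transporter, gave 247 ± 24.7 in control and 49.6 ± 8.95 in knockdown2 (-2.30, SE 0.17), and SLC7A9, an amino acid transporter, gave 164 ± 45.0 in control and 19.2 ± 1.98 in knockdown2 (-2.97, SE 0.21). Of the sterol exporters ABCG8 fell from dim signals (-2.60, SE 0.41) and ABCA1 fell (-0.74, SE 0.14), and ABCG5, the partner of ABCG8, was called lower (-0.49, SE 0.16) but lost its call without knockdown2 replicate 1, 2 or 3 or without a variance trend (adjusted p 0.0518 to 0.127). SLC30A10 (-2.75, SE 0.42), a manganese exporter, SLC39A5 (-1.19, SE 0.18) and SLC39A14 (-0.66, SE 0.11), metal importers, fell. ABCG8 and SLC30A10 passed the filter through the control arrays alone, with adjusted p of 9.64e-04 and 0.00113 without it. SLC7A2, a transporter of cationic amino acids, gave 364 ± 46.4 in control and 990.5 ± 93.1 in knockdown2 (1.44, SE 0.15), ABCD3, a peroxisomal fatty acid transporter, 738 ± 219 in control and 1916 ± 152 in knockdown2 (1.41, SE 0.16), and SLC40A1, the iron exporter ferroportin, 732 ± 188 in control and 1434 ± 87.0 in knockdown2 (1.000, SE 0.16). These 3 rose in every array.

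Of 29 annotated brush border and intestinal genes 14 were tested, 10 fell and 1 rose, with the lowest median of the lists (-1.15). Of the 14, 2 passed the filter through 1 group alone. The rise was lost without control replicate 1 or any 1 of the knockdown2 arrays. VIL1, the actin bundler villin, gave 206, 142 and 157 in the knockdown2 arrays and 785, 698 and 730.1 in the control arrays (log2 fold change -2.14, SE 0.16, adjusted p = 3.39e-10). NHERF1, an apical scaffold related to PDZK1, gave 1223 ± 221 in control and 445 ± 59.0 in knockdown2 (-1.45, SE 0.16). MYO1A (-1.76, SE 0.24), ESPN (-1.41, SE 0.18), which bundles actin in microvilli, and ANKS4B (-3.92, SE 0.47), part of the complex that links microvillus tips, fell, and ANKS4B passed the filter through the control arrays alone (adjusted p = 4.87e-05 without it). The apical peptidases DPP4 (-1.14, SE 0.14) and ANPEP (-0.96, SE 0.15) fell. EZR, which ties actin to the membrane, rose (0.44, SE 0.14) but lost its call without knockdown2 replicate 1, 2 or 3 or control replicate 1 or without a variance trend (adjusted p 0.0618 to 0.102). CDX1, CDX2, SI and CDH17 did not pass the filter.

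Of 26 epithelial junction and keratin genes tested, 8 rose and 8 fell, with a median of 0.01 that turned to -0.02 with values as deposited, to -0.05 without knockdown2 replicate 1 and to -0.06 without control replicate 2. Without control replicate 1, 5 rose. CDH1, E-cadherin, gave 43.8, 37.7 and 31.4 in the knockdown2 arrays and 149, 128 and 180.0 in the control arrays (log2 fold change -1.97, SE 0.19, adjusted p = 1.20e-08). The gap junction gene GJB1, connexin 32, gave 400.4 ± 50.7 in control and 140.2 ± 15.6 in knockdown2 (-1.503, SE 0.16), CLDN1, a tight junction claudin, 562 ± 89.0 in control and 209 ± 9.89 in knockdown2 (-1.41, SE 0.16), and EPCAM 1088 ± 244 in control and 529 ± 37.1 in knockdown2 (-1.02, SE 0.16). KRT19, the keratin of bile duct cells, gave 516, 571 and 650.4 in the knockdown2 arrays and 130.2, 112 and 167 in the control arrays (log2 fold change 2.09, SE 0.17, adjusted p = 9.67e-10), and KRT23 rose (1.38, SE 0.18), while KRT8 (0.03, SE 0.12) and KRT18 (-0.02, SE 0.10), the hepatocyte pair, did not pass. DSG2, a desmosomal cadherin, rose (1.17, SE 0.16), opposite to CDH1 and to JUP (-0.64, SE 0.16), a plakoglobin of both kinds of junction. CDH2, N-cadherin, did not pass (0.10, SE 0.15).

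Of 37 mesenchymal, matrix and TGF-beta genes tested, 15 rose and 1 fell (median 0.15), with NES at the top of the list. Called lower were 3 without knockdown2 replicate 3, 2 without control replicate 2 and 0 without knockdown2 replicate 2 or control replicate 1. TGFB1 gave 244 ± 7.51 in control and 747 ± 49.9 in knockdown2 on its brightest probe set (1.61, SE 0.15). Without probe sets shared between transcripts it had an adjusted p of 0.359, on a far dimmer probe set of the same sign (0.84, signals 2.72 to 20.6). The integrins ITGA6 (1.43, SE 0.14) and ITGAV (1.01, SE 0.13) rose, ITGAV with 1649 ± 250.4 in control and 3287 ± 97.1 in knockdown2. TIMP1, an inhibitor of matrix proteases, gave 3014, 4174 and 4222 in the knockdown2 arrays and 1135, 1407 and 1757 in the control arrays (log2 fold change 1.41, SE 0.15, adjusted p = 1.09e-07). The receptor TGFBR2 (0.46, SE 0.11), ACTA2 (0.98, SE 0.16), a smooth muscle actin, and ZEB1 (0.63, SE 0.16), a repressor of epithelial genes, rose. VIM (-0.37, SE 0.78), FN1 (0.05, SE 0.10), COL1A1 (-0.00, SE 0.20) and SNAI1 (-0.87, SE 0.74) did not pass. SMAD7, an inhibitor of TGF-beta signalling, was called lower (-0.52, SE 0.19) but lost its call without knockdown2 replicate 2 or control replicate 1 or 3, without the filter on low values, on the mean of its probe sets or without a variance trend (adjusted p 0.0536 to 0.326).

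Markers of other cell types were read beside this list. Of 12 stellate cell and fibroblast markers, 7 had a mean above the common median in knockdown2 and 8 in control. Their summed signal was 832 to 1041 in knockdown2 and 526 to 603 in control, most of it from ACTA2. Of the 8 tested, ACTA2 alone was called, and 6 had a negative sign (median -0.29), so the sum does not describe the other members. Of 10 macrophage and leukocyte markers 3 were above the median in each group, with LYZ at 3231 ± 497 in control and 3609 ± 426 in knockdown2 the brightest. Their sum was 3311 to 4162 in knockdown2 and 2928 to 3857 in control. Of the 4 tested, 1 was called lower (-2.53), 3 were not called, and 1 passed the filter through 1 group alone. Of 10 endothelial markers PECAM1 alone was above it, and the list's sum was 139 to 161 in knockdown2 and 106 to 117 in control. Only 1 endothelial marker was tested, and it was called higher (0.69). The part of other cells in any result was not tested. All 13 hepatocyte and HepG2 markers were above the median in both groups, and 4 of them fell (RBP4, TTR, APOA1 and TF).

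Of 20 biliary, progenitor and fetal liver genes tested, 7 rose and 2 fell (median 0.34), with 12 higher without control replicate 3 and 4 without control replicate 1 or knockdown2 replicate 2 or 3. Of the 20, 1 passed the filter through 1 group alone. SOX4, an SRY-box factor of immature cells, gave 1274, 1528 and 1402 in the knockdown2 arrays and 345, 298 and 344 in the control arrays (log2 fold change 2.09, SE 0.14, adjusted p = 7.34e-11). TNFRSF12A, the TWEAK receptor, gave 515, 469 and 340.1 in the knockdown2 arrays and 93.4, 104 and 167 in the control arrays (log2 fold change 1.88, SE 0.20, adjusted p = 6.90e-08), and CD24 (1.43, SE 0.26) rose from lower signals. EPCAM and PROM1 (-0.57, SE 0.15) fell, and SOX9 (0.34, SE 0.15), KRT7 (-0.18, SE 0.21), AFP, GPC3 (-0.08, SE 0.11) and DLK1 (0.20, SE 0.11) did not pass. KRT19 thus rose while KRT7, the other duct keratin, and SOX9 did not pass.

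Of 33 genes of YAP-TEAD, Wnt and growth factor signalling tested, 16 rose and 4 fell (median 0.32). CCN1, a secreted YAP target, gave 1220.3, 1401 and 1386 in the knockdown2 arrays and 328, 317 and 480.2 in the control arrays (log2 fold change 1.85, SE 0.16, adjusted p = 3.19e-09), and AXL, a receptor kinase, gave 146 ± 28.8 in control and 401 ± 26.7 in knockdown2 (1.47, SE 0.16), whereas the YAP targets CCN2 (-0.32, SE 0.13) and ANKRD1 (-0.18, SE 0.20) did not pass. Of Wnt feedback genes DKK1 (1.51, SE 0.17) and AXIN2 (0.67, SE 0.14) rose, RNF43 fell (-1.16, SE 0.17), and ZNRF3 (-0.12, SE 0.12), SP5 (-0.19, SE 0.17) and NOTUM (-0.03, SE 0.15) did not pass. MYC gave 1044 ± 85.3 in control and 1906 ± 31.5 in knockdown2 (0.87, SE 0.13) and CCND1, cyclin D1, 679 ± 142 in control and 1079 ± 87.1 in knockdown2 (0.68, SE 0.15). Of the EGF receptor axis the ligands EREG and HBEGF (0.69, SE 0.18) rose, EGFR was called higher (0.46, SE 0.16) but lost its call without knockdown2 replicate 2 or 3 or control replicate 1 or 2, on the mean of its probe sets or without a variance trend (adjusted p 0.0531 to 0.169), TGFA (0.05, SE 0.34) and ERBB2 (0.31, SE 0.15) did not pass, and ERBB3, the receptor without kinase activity, gave 555, 469 and 491 in the knockdown2 arrays and 1295, 1111 and 1353 in the control arrays (log2 fold change -1.31, SE 0.14, adjusted p = 1.48e-07). FGFR1 rose (0.95, SE 0.17), opposite to FGFR4.

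The immediate early and MAPK feedback genes had the highest median of the lists, 1.08. These genes answer growth factor and stress kinases within minutes, and DUSP, SPRY and SPRED members in turn restrain the kinases. Of 40 tested, 29 rose and 1 fell, and the leave-one-out medians lay between 1.02 and 1.20. EGR1 gave 1430.0, 1536 and 1084 in the knockdown2 arrays and 252, 382 and 838 in the control arrays (log2 fold change 1.62, SE 0.26, adjusted p = 2.56e-05), and EGR3 gave 108, 156 and 143 in the knockdown2 arrays and 20.4, 14.1 and 23.5 in the control arrays (log2 fold change 2.74, SE 0.22, adjusted p = 8.63e-10). FOS, dim in control, gave 39.3, 50.7 and 43.0 in the knockdown2 arrays and 2.48, 10.01 and 13.8 in the control arrays (log2 fold change 2.38, SE 0.43, adjusted p = 1.51e-04), and FOSL1 gave 84.1 ± 1.30 in control and 249 ± 36.03 in knockdown2 (1.54, SE 0.16). In these 4 factors every knockdown2 array exceeded every control array. JUNB (1.36, SE 0.19) rose, and JUN (0.28, SE 0.17) and ATF3 (0.21, SE 0.17) did not pass. Of the Krüppel-like factors KLF4 (1.78, SE 0.17), KLF5 (1.55, SE 0.23), KLF6 (1.28, SE 0.14) and KLF10 (1.47, SE 0.16) rose and KLF2 (0.13, SE 0.46) did not pass.

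Among the kinase restraints, DUSP5, a nuclear ERK phosphatase, gave 273, 262 and 276 in the knockdown2 arrays and 36.7, 36.6 and 48.9 in the control arrays (log2 fold change 2.70, SE 0.17, adjusted p = 9.64e-12). DUSP1 (1.24, SE 0.15), DUSP4 (1.08, SE 0.17) and DUSP10 (1.39, SE 0.21) rose as well, and DUSP8 (0.16, SE 0.30) did not pass. Dimmer probe sets of DUSP1 gave 0.85 and -0.40 and did not pass. DUSP6, the cytoplasmic ERK phosphatase, was called higher (0.50, SE 0.13) but lost its call without control replicate 1 or without a variance trend (adjusted p 0.0581 to 0.0783). SPRY1 (0.97, SE 0.15) and SPRY4 (1.20, SE 0.14) rose, SPRY4 with 556 ± 70.2 in control and 1270.3 ± 69.5 in knockdown2. SPRY2 was called higher (0.47, SE 0.15) but lost its call without knockdown2 replicate 1, 2 or 3 or control replicate 1 (adjusted p 0.0554 to 0.153), SPRED1 (0.51, SE 0.18) lost its call without knockdown2 replicate 1, 2 or 3 or control replicate 1 or 2, without the filter on low values or without a variance trend (adjusted p 0.0519 to 0.176), and SPRED2 (0.40, SE 0.14) lost it without knockdown2 replicate 1, 2 or 3 or control replicate 1, on the mean of its probe sets or without a variance trend (adjusted p 0.0836 to 0.417). Of other early genes IER3 gave 5483, 6087 and 6405 in the knockdown2 arrays and 1815, 1951 and 2651 in the control arrays (log2 fold change 1.502, SE 0.13, adjusted p = 2.97e-09), and IER2 (1.83, SE 0.15), PHLDA1 (1.17, SE 0.14), MAFF (1.33, SE 0.17) and BHLHE40 (1.75, SE 0.15) rose. The ETS genes ETV4 (-0.05, SE 0.15) and ETV5 (-0.01, SE 0.14) did not pass. ID2 was the member called lower (-0.39, SE 0.12) but lost its call without knockdown2 replicate 1, 2 or 3 or control replicate 1, without the filter on low values or without a variance trend (adjusted p 0.054 to 0.119), and ID1 (-0.19, SE 0.11) and ID3 (-0.17, SE 0.14) did not pass.

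**Figure D4:**
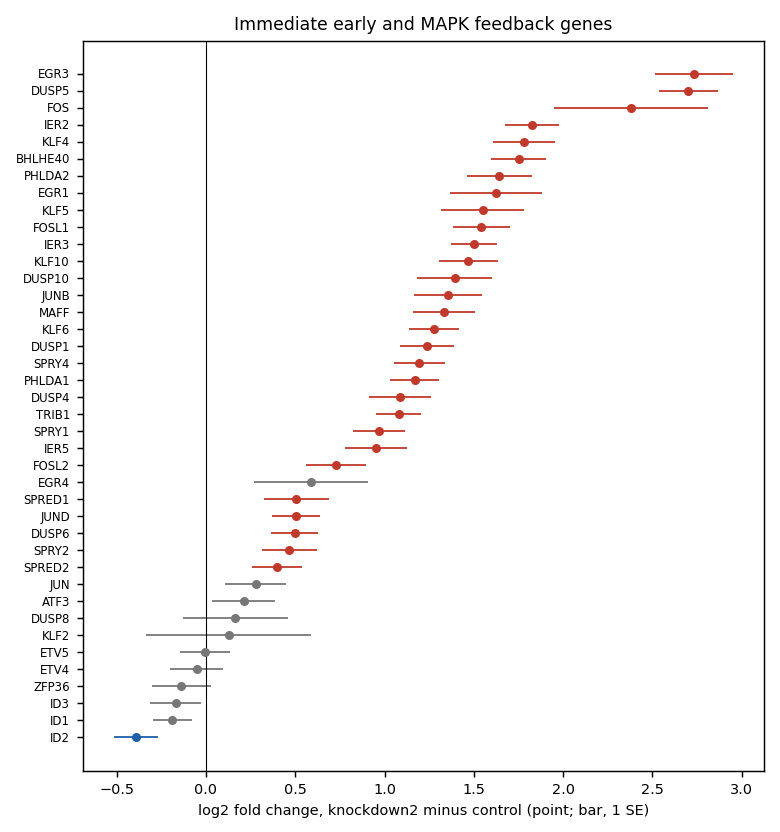
Log2 fold change of knockdown2 minus control with 1 SE for the 40 tested immediate early and MAPK feedback genes, red where called higher, blue where called lower and grey where not called. The points run from ID2 at -0.39 to EGR3 at 2.74, and 29 of the 40 are called higher.

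Of 35 annotated cytokine, chemokine and NF-kB genes 22 were tested, 6 rose and 6 fell (median 0.00, 0.03 when arrays were centred on the tested genes or without knockdown2 replicate 1, and 0.04 without control replicate 2). CCL20, a chemokine, gave 5.04, 26.4 and 8.28 in the knockdown2 arrays and 195, 121 and 129.7 in the control arrays (log2 fold change -3.61, SE 0.35, adjusted p = 1.65e-08), and its receptor CCR6 fell too (-2.58, SE 0.31). CXCL16 (-1.78, SE 0.19) and TNFSF10 (-2.90, SE 0.21), the death ligand TRAIL, fell. IL11, a ligand of the interleukin 6 family, rose with 194, 246 and 176 in the knockdown2 arrays and 36.8, 39.7 and 50.6 in the control arrays (log2 fold change 2.24, SE 0.18, adjusted p = 8.77e-10). LIF, another ligand of it, rose with 93.7 ± 3.92 in control and 336 ± 60.2 in knockdown2 (1.81, SE 0.16) and the receptor gene IL6R with 206 ± 74.3 in control and 783 ± 2.43 in knockdown2 (1.98, SE 0.18). The NF-kB genes NFKB1 (0.09, SE 0.15), NFKB2 (0.15, SE 0.19), RELB (-0.10, SE 0.31), NFKBIA (-0.20, SE 0.18) and TNFAIP3 (-0.32, SE 0.15) did not pass. IL1R1 rose (0.92, SE 0.17) while the antagonist IL1RN fell.

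Since double-stranded RNA can set off an interferon response, the interferon and RNA sensing genes were read as a list. Of 34 tested, 12 fell and 3 rose (median -0.40). IFIT3 gave 33.8, 43.3 and 27.7 in the knockdown2 arrays and 88.5, 74.6 and 119.5 in the control arrays (log2 fold change -1.39, SE 0.21, adjusted p = 1.80e-05), and IFI35 (-1.30, SE 0.16), IFIH1 (-1.17, SE 0.19), OAS3 (-1.02, SE 0.19) and USP18 (-1.05, SE 0.17) fell. XAF1 was called lower (-2.42, SE 0.38) on a probe set that passed the filter through the control arrays alone (adjusted p = 0.00134 without the filter). Without control replicate 1, 2 or 3 that probe set left the test. A dimmer one then stood for XAF1 and did not pass (adjusted p 0.0733 to 0.58). ISG15 (0.03, SE 0.15), MX1 (-0.56, SE 0.22), EIF2AK2 (-0.07, SE 0.16) and RIGI (0.25, SE 0.18) did not pass. The 3 that rose were the antiviral membrane genes IFITM1 (0.83, SE 0.15), IFITM2 (0.94, SE 0.13) and IFITM3 (0.81, SE 0.13), neighbours in sequence that probes may share. What the control cells received is not stated, so these values compare the groups as labelled.

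Of 48 DNA replication genes tested, 13 fell, 1 rose and 34 did not pass (median -0.15), and 20 and 21 were called lower with values as deposited and after quantile normalization. Without control replicate 3, 3 rose. MCM2, a subunit of the replicative helicase, gave 443, 466 and 445 in the knockdown2 arrays and 784, 808 and 945 in the control arrays (log2 fold change -0.90, SE 0.14, adjusted p = 3.20e-05), and E2F1 (-1.01, SE 0.21), E2F2 (-1.24, SE 0.18), CDC6 (-0.71, SE 0.14) and MCM5 (-0.54, SE 0.14) fell. PCNA (-0.02, SE 0.12), MCM7 (-0.10, SE 0.15) and RRM2 (0.08, SE 0.13) did not pass, and CCNE2, cyclin E2, rose with 114 ± 21.6 in control and 202 ± 18.9 in knockdown2 (0.83, SE 0.17). Of 54 mitosis genes 16 fell, 3 rose and 35 did not pass (median -0.16), and 10 fell without knockdown2 replicate 2 or control replicate 1. Without control replicate 3, 6 rose. FOXM1, a factor of G2 and mitosis genes, gave 121, 127 and 131 in the knockdown2 arrays and 272, 252 and 343 in the control arrays (log2 fold change -1.17, SE 0.16, adjusted p = 3.98e-06). CDC25B (-1.18, SE 0.17), KIF20A (-1.07, SE 0.16), PLK1 (-0.79, SE 0.15) and MKI67 (-0.82, SE 0.15) fell, and CDK1 (-0.34, SE 0.14), CCNB1 (-0.38, SE 0.14) and TOP2A (0.08, SE 0.14) did not pass. Falls in either list were at most 1.24 on the log2 scale.

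Of 32 cyclin-dependent kinase inhibitor, p53 target and growth arrest genes tested, 13 rose and 0 fell (median 0.15), with 2 lower without control replicate 2. With values as deposited, after quantile normalization or with arrays centred on the tested genes, 3 were called lower. CDKN2B, the inhibitor p15, gave 77.8, 70.8 and 78.9 in the knockdown2 arrays and 0.496, 7.11 and 9.91 in the control arrays (log2 fold change 3.78, SE 0.47, adjusted p = 1.16e-06). It passed the filter through the knockdown2 arrays alone, so a rise was built into its passing, and its adjusted p was 6.19e-04 without the filter. Its neighbour CDKN2A rose (1.05, SE 0.20). CDKN1A, the inhibitor p21, gave 1173, 1155 and 1150.4 in the knockdown2 arrays and 602, 559 and 755 in the control arrays (log2 fold change 0.87, SE 0.14, adjusted p = 5.11e-05), and GADD45A (1.01, SE 0.15) and GADD45B (0.65, SE 0.16) rose. CDKN1B (-0.14, SE 0.17), the inhibitor p27, and the p53 targets MDM2 (-0.39, SE 0.17), BAX (0.04, SE 0.18) and TP53I3 (0.04, SE 0.16) did not pass, while DDB2 (0.70, SE 0.16), XPC (0.68, SE 0.17) and ZMAT3 (0.72, SE 0.18) rose.

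Of 34 unfolded protein and amino acid stress genes tested, 12 fell and 3 rose (median -0.17), with 7 lower without knockdown2 replicate 2 or 3 or control replicate 1. PHGDH, which starts serine synthesis, gave 204, 199 and 211 in the knockdown2 arrays and 894, 705 and 899 in the control arrays (log2 fold change -2.01, SE 0.15, adjusted p = 3.54e-10), and PSPH (-0.74, SE 0.16), a later step, fell. ATF4, the factor of the amino acid response, was called lower (-0.40, SE 0.14) but lost its call without knockdown2 replicate 2 or 3 or control replicate 1 or 3, without the filter on low values or without a variance trend (adjusted p 0.0509 to 0.164). HSPA5 (-0.10, SE 0.11), DDIT3 (-0.08, SE 0.16) and XBP1 did not pass. PPP1R15A rose (1.12, SE 0.16). Of 32 NRF2, redox and metallothionein genes 8 fell and 2 rose (median -0.09), with 8 higher without control replicate 3 and 1 without any other 1 of the arrays. TXNRD1, thioredoxin reductase, gave 507, 469 and 464 in the knockdown2 arrays and 2368, 1930.0 and 2491 in the control arrays (log2 fold change -2.23, SE 0.14, adjusted p = 1.37e-11), and AKR1B10, an aldehyde reductase, gave 4154 ± 571 in control and 1019 ± 26.9 in knockdown2 (-2.02, SE 0.13). CAT (-1.11, SE 0.13), catalase, and GPX2 (-0.92, SE 0.13) and GPX3 (-1.02, SE 0.13) fell, GCLC, the first step of glutathione synthesis, rose with 2156 ± 178 in control and 4053 ± 189 in knockdown2 (0.91, SE 0.11), and NQO1 (-0.08, SE 0.11) and HMOX1 (-0.33, SE 0.14) did not pass.

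Of 39 nuclear genes of oxidative phosphorylation tested, 3 fell, 1 rose and 35 did not pass (median -0.07). The share called was 10.3% against 28.9% of all genes, but after quantile normalization it was 43.6% against 39.8%, with 15 lower. The counts depended on single arrays, since 0 fell without knockdown2 replicate 1, 1 without control replicate 1 or knockdown2 replicate 2 or 3, and 9 without control replicate 2, while 4 rose without control replicate 3. CYCS, cytochrome c, was the rise, with 2481 ± 335 in control and 4139 ± 269 in knockdown2 (log2 fold change 0.74, SE 0.12, adjusted p = 3.40e-05). NDUFS3 (-0.24, SE 0.14), of complex I, and COX4I1 (-0.03, SE 0.11), of complex IV, were among those that did not pass.

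Of 21 iron, hepcidin and copper genes tested, 9 fell and 2 rose (median -0.19), with 4 higher without control replicate 3 and 1 without control replicate 1 or any 1 of the knockdown2 arrays. Of the 21, 1 passed the filter through 1 group alone. Beside HAMP the falls held TF, transferrin, and ATP7B, the copper exporter, with 314 ± 76.4 in control and 116 ± 10.6 in knockdown2 (-1.41, SE 0.17). TFR2, a sensor of iron-loaded transferrin, was called lower on its brightest probe set (-0.95, SE 0.18) but not on the mean of its probe sets (adjusted p = 0.401). The hepcidin target SLC40A1 rose, TFRC (0.17, SE 0.12), the uptake receptor, did not pass, and BMP6 (0.83, SE 0.54) did not pass at dim signals. BMPR2 is not given a direction, since its brightest probe set fell (-1.30, SE 0.20) and 2 others were called higher (0.81 and 0.74). Of 15 clock genes 4 rose and 2 fell (median 0.15). The median was -0.06 without knockdown2 replicate 3, -0.02 without control replicate 1 and 0.36 without control replicate 3. The repressors PER2 (-0.91, SE 0.16) and CRY1 (-0.77, SE 0.17) fell, and BHLHE40, NR1D2, NPAS2 (0.82, SE 0.15) and HLF rose.

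A direct contrast in a fit of all 9 arrays showed where knockdown2 and knockdown1 differed. It called 3479 genes (28.1%), of which 2154 were higher and 1325 lower in knockdown2. Of the 174 genes that the naming rule took from knockdown2 against control, 88 differed, 52 higher and 36 lower in knockdown2, and since the rule used the knockdown2 arrays this count is a description. Of 48 replication genes 46 were higher in knockdown2 and 0 lower (median 1.46), and of 54 mitosis genes 53 were higher and 0 lower (median 1.68). RRM2, a subunit of ribonucleotide reductase, gave 1943, 1996 and 2393 in the control arrays, 2033, 2311 and 2333 in the knockdown2 arrays and 191, 193 and 242 in the knockdown1 arrays. Its knockdown2 arrays lay among the controls and far above knockdown1 (3.41, SE 0.14, adjusted p = 2.06e-15). FOXM1, which fell against control, was still higher than in knockdown1 (1.43, SE 0.17, adjusted p = 1.38e-07).

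**Figure D5:**
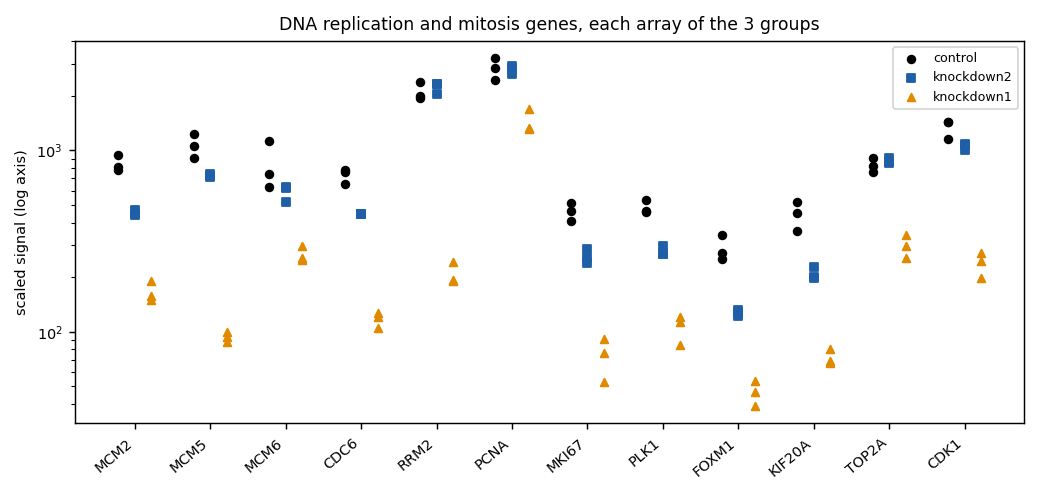
Scaled signal of each of the 9 arrays on a log axis for 12 DNA replication and mitosis genes, with control as circles, knockdown2 as squares and knockdown1 as triangles. The knockdown2 arrays lie above every knockdown1 array for all 12 genes and, except for 1 TOP2A array, no higher than the highest control array.

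The immediate early genes differed in the same direction, 20 of 40 being higher and 0 lower in knockdown2 than in knockdown1 (median 0.38), with DUSP5 (1.09, SE 0.16, adjusted p = 9.47e-06) and KLF4 (0.65, SE 0.20, adjusted p = 0.0161) as examples. Of the growth factor and YAP list, EREG (0.97, SE 0.15, adjusted p = 1.69e-05) and CCN1 (2.13, SE 0.17, adjusted p = 1.58e-10) were higher in knockdown2. In the interferon list 14 of 34 were lower in knockdown2 and 0 higher (median -0.31), IFIT3 among them (-1.47, SE 0.22, adjusted p = 9.47e-06). Of the genes described above that fell against control, ACAA1 (-1.59, SE 0.16, adjusted p = 8.98e-09), PDZK1 (-1.03, SE 0.25, adjusted p = 0.00254), DDC (-0.77, SE 0.15, adjusted p = 2.34e-04) and TXNRD1 (-1.94, SE 0.13, adjusted p = 1.21e-11) were lower in knockdown2, CIDEB (0.53, SE 0.18, adjusted p = 0.025) and HAMP (1.04, SE 0.22, adjusted p = 6.12e-04) higher. For APOC3 (-0.17, SE 0.22, adjusted p = 0.631) and FABP1 (0.12, SE 0.23, adjusted p = 0.751) the difference between the knockdowns did not pass.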

How the data were processed

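Total RNA of HepG2 cells was hybridised to 1-colour oligonucleotide arrays. The authors deposited 1 linear intensity per probe set and array, made with MAS5 per the submitters' processing notes, which give no version here. No detection calls were used. Of 54675 probe sets, 62 were controls, 41097 had 1 gene symbol, 1801 several and 11715 none, and the last 2 kinds were left out. Array medians, 12.3 to 15.6, were scaled to 13.7, and log2(signal + 1.37) of the 6 arrays was fitted in R 4.3.3 with limma 3.58.1 (lmFit, then eBayes with trend; two-sided tests) on the brightest probe set per gene, with Benjamini-Hochberg adjustment over 12380 genes. The fit was tested on simulated data. Replicate numbers did not pair the arrays.

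The named genes are the targets, the 12 largest changes each way measured above the median in both groups, the 5 largest each way of any level, the leading called members of each list, and members given for their role in a list. The comparison, lists, motifs and naming rule were chosen with earlier results of these data known. Of 267 further probe sets of 156 named genes, 254 had the same sign. The alternatives were other scalings, pseudocounts, filters, probe-set rules, fits, a replicate block and leaving out each array.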

Additional observations from a re-analysis of the deposited data

How the results depend on the processing

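With 3 arrays a group, MAS5 signals near background and an unstated origin of the replicates limit every small change. Of 311 named genes called in the main setting, 271 kept the direction and the call under every alternative in which they were tested. A probe set that passed the filter through 1 group alone could not pass the stricter filter. Nor could it pass with an array of that group left out. The gene was then untested or read on another probe set. The count of genes called was 2580 to 4939 over the alternatives that keep all 6 arrays and 2655 to 4575 with 1 array left out, that of genes changed at least 2-fold 729 to 1071 and 938 to 1067. Genes called higher numbered 2705 instead of 1744 when arrays were centred on the tested genes, and 1310 to 2912 with 1 array left out, the highest without control replicate 3. The other scalings called more genes, 4876 with values as deposited and 4924 after quantile normalization, and the main scaling adds spread among the controls, whose deposited medians ran from 12.3 to 15.6. The brighter HNF4G probe set gave -0.77 to -0.39 with 1 array left out and passed without knockdown2 replicate 1. Without probe sets shared between transcripts NDUFS7 turned to 0.42 and TFPI to -0.30. With 1 array left out TFPI gave -0.35 to 0.86 and BMPR2 -1.47 to 0.59, since another probe set then became the brightest. Same-numbered arrays did not deviate together (correlations 0.05, 0.02 and -0.0031), and the replicate block called 3864 genes, 1892 higher and 1972 lower.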
